A study of Homo sapiens with 6 samples.

Results

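Tropomyosins, transgelins and calponins are proteins that lie along actin filaments, and they are described here with the smooth muscle actin gene ACTA2 in MDA-MB-231 cells depleted of PHF20L1. The 10 genes (TPM1, TPM2, TPM3, TPM4, TAGLN, TAGLN2, ACTA2, CNN1, CNN2 and CNN3) were selected by gene symbol, out of 17452 genes listed in each library. All 10 were found. They were chosen on their role at the filament and with the measured rise of TPM4 after the knockdown already known, so that the differences of these genes between the groups are given as a description, without p-values.

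MDA-MB-231 is an established human line from a triple-negative breast tumour. The labels give 2 groups of 3 libraries, transfected with a control siRNA (siControl) or with siRNA against PHF20L1 (siPHF20L1), and numbered 1 to 3 in each group. PHF20L1 encodes a nuclear reader of methylated lysines, and an siRNA lowers the transcripts it pairs with. Both groups shared the cell line and its culture in L-15 medium with serum. The labels leave the choice among their lipid reagents unstated, give no siRNA sequence or harvest time, and do not say whether libraries came from separate cultures. The p-values below thus reflect the spread of these libraries only, and that may be technical.

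Tropomyosins are coiled-coil dimers that polymerise head to tail along the actin filament and control which other proteins, myosin among them, can bind it. Each of the 4 genes makes several isoforms, long ones known best from muscle and short ones known from the cytoskeleton. Transgelins and calponins carry a calponin homology domain and stabilise or bundle filaments. TAGLN, CNN1 and ACTA2 are textbook markers of smooth muscle and myofibroblasts, and are classic targets of serum response factor (SRF) and its actin-regulated cofactors, which bind a DNA element called the CArG box.

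Because SRF acts through that element, the promoters of the 10 genes were searched for it. RefSeq promoter windows (GRCh38.p14, from 250 bases before to 50 after a start) were found for 9 genes, in 17 windows; TAGLN was the other gene. The exact CArG box was present in 1 window of TPM4 and in the window of CNN2, against 1.2% of the 19963 windows of genes in the files. With at most 1 of the 6 inner letters allowed to be other than A or T, a window of ACTA2 held 2 matches, against 7.45% of windows. The element reads alike on both strands, and it overlapped no match of the other words searched. Those words were GGAATG, known from TEAD factors, with 1 match each in windows of ACTA2 and CNN3, and TATAAA, with none in any of the 17 windows. Searched on both strands, they were in 11.94% and 8.26% of the windows of genes in the files. The GC box GGGCGG was more common, in 59.48% of those windows (both strands), and 1 window or more of each of the 9 genes held it. A match describes the letters only.

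The stretches below, from 5′ to 3′ on the gene's strand, show the CArG matches of TPM4, CNN2 and ACTA2 in capitals. TPM1, TPM2, TAGLN2 and CNN3 also differed between the groups, without such a match in any of their windows. Whether a match goes with a difference was not tested. The stretch of TPM4 is chr19:16067338-16067437, plus strand, 200 to 101 bases before the most upstream start. That of CNN2 is chr19:1026509-1026538, plus strand, 99 to 70 bases before the start. That of ACTA2 is chr10:88952814-88952913, minus strand, 140 to 41 bases before the downstream start. None of the 3 stretches overlapped an annotated exon.
TPM4: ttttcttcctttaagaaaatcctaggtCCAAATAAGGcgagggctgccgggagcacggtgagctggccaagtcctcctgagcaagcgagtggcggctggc
CNN2: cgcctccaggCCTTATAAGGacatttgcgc
ACTA2: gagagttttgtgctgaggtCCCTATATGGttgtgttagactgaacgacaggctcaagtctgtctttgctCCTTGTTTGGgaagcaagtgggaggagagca
TPM4 has 2 further windows without the element, and the gene-level values do not tell which start the transcripts used.

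Values are FPKM as deposited (fragments per length of transcript and per depth of library), so that levels of different genes can be set side by side per length. Steps in the low values put the depth between 17100000 and 17600000 fragments a library. If a step stood for more than 1 fragment, this depth, the chi-square values and the fragment numbers below would all be larger by that factor. The targeted gene PHF20L1 averaged 13.7 ± 1.82 FPKM with the control siRNA and 2.57 ± 0.231 FPKM with its own (SD, n = 3 each, as for all means below). Library 1 of each group stood apart from the other 2: pairs with it had chi-square values of 11.18 to 14.5 per gene on approximate fragments, while libraries 2 and 3 gave 2.27 (siControl) and 2.0 (siPHF20L1), where counting noise alone gives about 1. The line's mesenchymal markers VIM, CD44, AXL, CAV1 and MSN were all abundant. Their summed level was 2801.62 to 2837.3 FPKM in siControl and 1905.96 to 1945.79 FPKM in siPHF20L1 libraries. VIM, which encodes vimentin, and AXL, a receptor kinase, made up most of that difference. Its part in the results below was not tested, and in bulk RNA fewer cells of a type and less RNA per cell cannot be told apart.

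In control cells the abundant members were the non-muscle ones. TAGLN2, the transgelin of non-muscle cells, came first at 226.1 ± 10.5 FPKM, followed by TPM3 at 180.0 ± 6.35 FPKM and CNN2 at 176.7 ± 16.2 FPKM. TPM3 and CNN2 overlapped in range, and TPM3 was the higher of them in 1 of 3 siControl libraries. CNN3, the acidic calponin, was at 133.5 ± 0.985 FPKM and TPM4 at 80.7 ± 5.23 FPKM. TPM1, TPM2 and TAGLN lay lower, at 29.9 ± 1.3, 17.3 ± 0.695 and 13.0 ± 1.22 FPKM. ACTA2 was at 0.97 ± 0.131 FPKM and CNN1, the smooth muscle calponin, at 0.19 ± 0.0173 FPKM. Apart from TPM3 and CNN2, neighbours in this order did not overlap in the 3 siControl libraries.

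**Figure D1:**
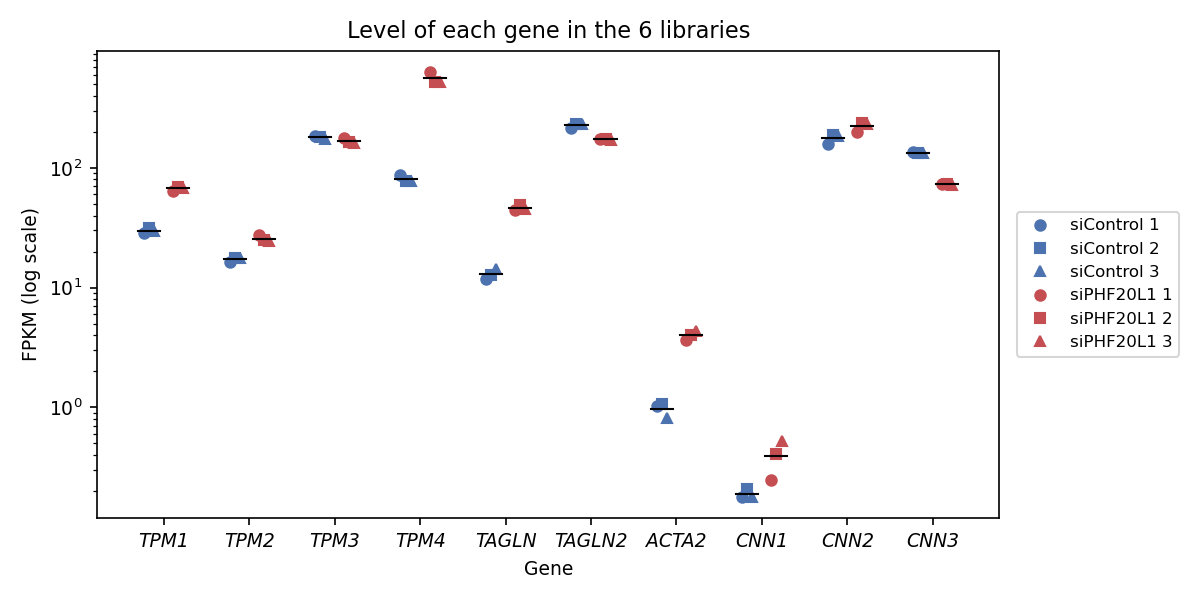
FPKM of each of the 10 genes in every library on a log axis; blue symbols are siControl, red symbols siPHF20L1, the symbol shape gives the replicate number and the black line the mean of 3 libraries. TPM4, TAGLN, ACTA2 and TPM1 show the widest gaps upwards and CNN3 the widest downwards, while TPM3 overlaps.

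After the knockdown the order changed at its top. TPM4 became the most abundant of the 10 genes, at rank 77 of all 17452 genes by mean FPKM, against rank 871 in siControl. CNN2 followed at 222.2 ± 20.4 FPKM. TAGLN2 and TPM3 came next with overlapping ranges, at 172.8 ± 1.31 and 167.9 ± 8.83 FPKM. TAGLN passed TPM2, while ACTA2 and CNN1 stayed the lowest 2.

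TPM4, a tropomyosin best known for short cytoskeletal isoforms, read 86.72, 77.33 and 78.05 FPKM in siControl libraries 1, 2 and 3. In siPHF20L1 libraries it read 631.31, 519.27 and 525.15 FPKM. Every siPHF20L1 library was thus far above every siControl library, and the libraries numbered 1 were the highest of their group in both. The ratio of the means was 6.92, with 5.99 and 8.16 as the lowest and highest ratio of any 2 libraries. On the log2(FPKM + 1) scale, used for all differences below, TPM4 was higher by 2.77 (SE 0.09), rank 4 among 11560 genes tested. It was 2.85 between the libraries numbered 1 and 2.73 in those numbered 2 and 3.

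TPM1, the tropomyosin abundant in heart and smooth muscle and also present in fibroblasts, read 28.73, 31.3 and 29.67 FPKM in siControl libraries. Its readings were 64.65, 69.52 and 68.24 FPKM in siPHF20L1 libraries. The groups lay apart and the spread within each was small. The difference was 1.15 (SE 0.06), a ratio of 2.26.

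TPM2, the beta tropomyosin, read 16.51, 17.65 and 17.77 FPKM in siControl and 27.53, 25.07 and 24.36 FPKM in siPHF20L1 libraries. All siPHF20L1 libraries were above all siControl libraries, by less than for TPM1 or TPM4. The difference was 0.54 (SE 0.07), and it was 0.7 between the libraries numbered 1 and 0.46 in those numbered 2 and 3.

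TPM3, whose short isoforms are widely expressed, read 184.8, 182.31 and 172.77 FPKM in siControl and 178.04, 163.1 and 162.43 FPKM in siPHF20L1 libraries. It was the 1 gene of the 10 whose groups overlapped, with siPHF20L1 library 1 inside the siControl range. The difference was -0.10 (SE 0.06). The annotation has 8 named pseudogenes of TPM3, more than for the other tropomyosins, so that its level is uncertain where reads were split among copies.

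Summed over the 4 genes, tropomyosin transcripts went from 307.9 ± 9.27 FPKM in siControl to 819.6 ± 71.0 FPKM in siPHF20L1 libraries (SD, n = 3 each). TPM4 made up 26.2 ± 1.15% of the sum in siControl and 68.0 ± 1.72% in siPHF20L1 libraries. The share of TPM3 went from 58.4 ± 0.611% to 20.5 ± 0.7% although its own level moved little. TPM1 took 9.71 ± 0.556% and 8.29 ± 0.975%, and TPM2 5.63 ± 0.383% and 3.13 ± 0.0907%. Both thus had a higher level and a smaller share in siPHF20L1 libraries.

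**Figure D2:**
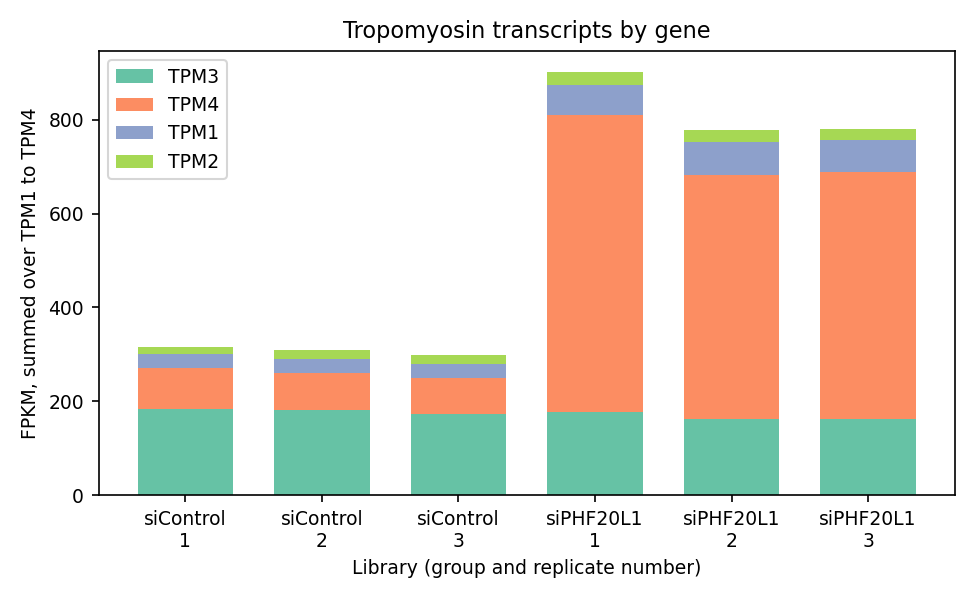
FPKM of TPM1 to TPM4 stacked for each library, labelled by group and replicate number, from a baseline of 0. The TPM4 segment grows from 77.33 to 86.72 FPKM in siControl to 519.27 to 631.31 FPKM in siPHF20L1 libraries, while the TPM3 segment stays between 162.43 and 184.8 FPKM.

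The 2 transgelins went opposite ways. TAGLN, also called SM22, read 11.9, 12.68 and 14.3 FPKM in siControl and 44.3, 49.16 and 45.41 FPKM in siPHF20L1 libraries. Its groups were well apart, with a ratio of 3.57 and a difference of 1.76 (SE 0.08), rank 37 of the genes tested. TAGLN2 read 214.0, 230.68 and 233.49 FPKM in siControl and 172.52, 174.18 and 171.6 FPKM in siPHF20L1 libraries. All its siPHF20L1 libraries were below all siControl libraries, and the difference was -0.38 (SE 0.06). TAGLN made up 5.42 ± 0.307% of the transgelin sum in siControl and 21.1 ± 0.819% in siPHF20L1 libraries, while the sum itself was 239.0 ± 11.6 and 219.0 ± 3.7 FPKM. TAGLN shares exon bases with PCSK7 on the opposite strand, a protease gene at 10.38 FPKM on average with the control siRNA and 13.87 FPKM after the knockdown. Whether the counting used strand was not given in the sources used here, so values of such partners are uncertain. TPM1, TPM4 and CNN2 also share exon bases with genes on the opposite strand, for which no values were found.

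The smooth muscle actin gene ACTA2 read 1.03, 1.06 and 0.82 FPKM in siControl and 3.62, 4.02 and 4.34 FPKM in siPHF20L1 libraries. These levels correspond to roughly 19.2 to 24.8 and 83.5 to 101.8 fragments a library. The groups did not overlap, and the difference of 1.34 (SE 0.09) understates the ratio of 4.12 at so low a level. ACTA2 passed the filter on low values (1 FPKM in 3 libraries) through the siPHF20L1 libraries, since only 2 siControl libraries reached it. It shares exon bases on the opposite strand with ACTA2-AS1 and with FAS, the death receptor gene, which averaged 2.79 FPKM with the control siRNA and 3.26 FPKM after the knockdown.

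CNN1 did not pass the filter and was not tested. It read 0.18, 0.21 and 0.18 FPKM in siControl and 0.25, 0.41 and 0.52 FPKM in siPHF20L1 libraries, roughly 5.7 to 6.7 and 7.9 to 16.7 fragments. The siPHF20L1 libraries were all above the siControl libraries, but siPHF20L1 library 1 only by about 1 fragment.

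CNN2, a calponin of non-muscle and smooth muscle cells, read 158.06, 187.88 and 184.08 FPKM in siControl and 198.69, 234.81 and 233.07 FPKM in siPHF20L1 libraries. The groups lay apart by little, because the libraries numbered 1 were the lowest of their group in both. Within the number 1 and within the numbers 2 and 3 the difference was 0.33 each, as it was over all libraries (SE 0.09). CNN2 has 11 named pseudogenes in the annotation, so its level has the same uncertainty as that of TPM3.

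CNN3, known from non-muscle cells and the regulation of contractility, read 134.65, 132.98 and 132.91 FPKM in siControl and 73.26, 73.19 and 71.95 FPKM in siPHF20L1 libraries. The spread was the smallest of the abundant members and the groups were far apart, with a difference of -0.87 (SE 0.05). Of the calponin sum, CNN3 made up 43.1 ± 2.52% in siControl and 24.7 ± 1.91% in siPHF20L1 libraries, and CNN2 56.8 ± 2.47% and 75.1 ± 1.85%.

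Counted in the fit over all genes (limma, adjusted p under 0.05), 6 of the 9 members tested were higher in siPHF20L1 libraries, where 34.0% of all 11560 genes tested were, and 2 were lower, where 24.7% were. The 1 other, TPM3, did not pass. It was counted as lower with the replicate number as a block, so that 3 were lower, at the same difference of -0.10. Leaving out both libraries numbered 1 (-0.12) or scaling by median-ratio factors (-0.18) also made it count as lower. CNN2 was not counted as higher without siPHF20L1 library 3, nor with median-ratio size factors. The balance over all genes turned with the scaling: 3926 were higher and 2851 lower as deposited, 3318 and 3540 with median-ratio factors, and 3371 and 3478 with quantile normalization. By libraries alone, all siPHF20L1 values lay above all siControl values for 7 of the 10 genes, CNN1 included, and below them for 2. Among all genes tested these shares were 36.7% and 27.0%. The median difference of the 9 members was 0.54, against 0.05 for all genes tested. Since TPM4 helped choose the members, and ACTA2 passed the filter through the siPHF20L1 libraries, nothing is read from these counts. All 10 genes moved the same way between the libraries numbered 1 as in those numbered 2 and 3, and the share of all genes that did so was not computed.

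**Figure D3:**
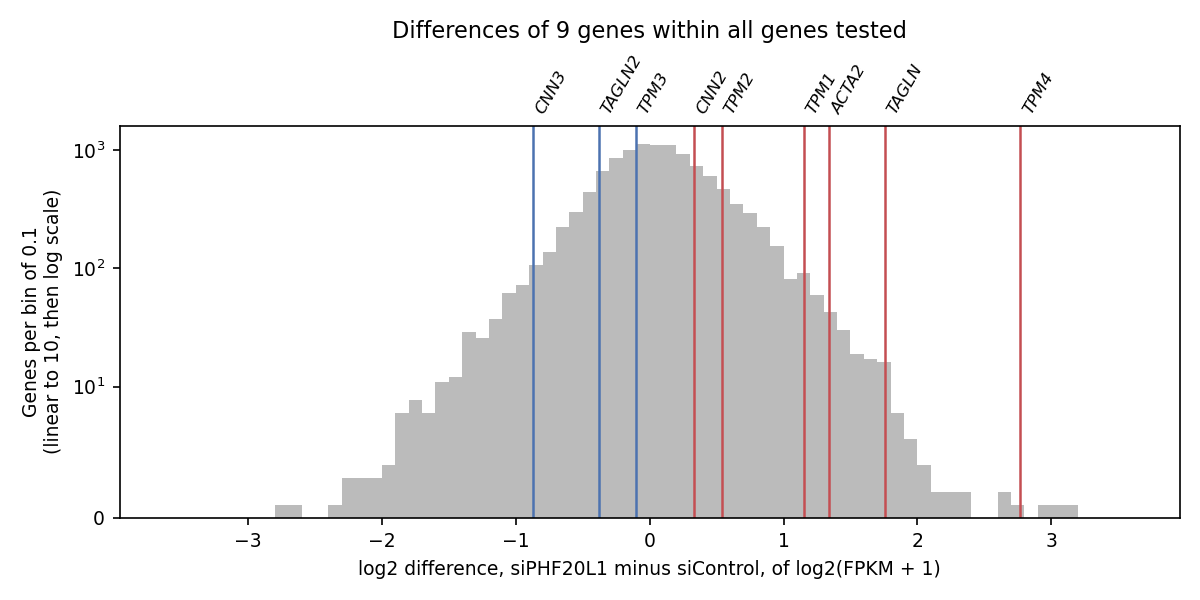
Histogram of the log2 difference of all 11560 genes tested (grey, bins of 0.1, vertical axis linear up to 10 genes and logarithmic above), with a line for each of the 9 members tested, red above 0 and blue below. TPM4 at 2.77 and TAGLN at 1.76 lie in the right tail, CNN3 at -0.87 is the lowest, and TPM3 at -0.10 is near the centre.

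Differences between libraries of the same group did not enter the choice of members. Library 1 stood above libraries 2 and 3 in TPM4, by 0.16 in siControl and 0.27 in siPHF20L1, and below them in CNN2, by 0.23 in both. Library 1 deviated in the same direction in both groups for 8 of the 10 genes, TPM2 and ACTA2 being the others. Among the 8, CNN3 (0.02 and 0.01), CNN1 (-0.02 in siControl) and TAGLN2 (almost none in siPHF20L1) rest on very small values. The share over all genes was not computed. Over the genes tested these deviations correlated at 0.73, so the count is not particular to the members. The shifts of library 1 were far smaller than the difference between the groups for TPM4, and close to it in size for CNN2.

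The 3 genes with a mean of at least 10 FPKM whose centred log2 profile over the 6 libraries was closest to that of TPM4, out of 6522, were LCP1, IGFBPL1 and CD22. Their root mean square distances were 0.11, 0.16 and 0.16. All 3 reached the mean of 10 FPKM only through the siPHF20L1 libraries, since their siControl means were 2.26, 3.39 and 2.63 FPKM. LCP1, which encodes an actin-bundling plastin, read 2.31, 2.15 and 2.32 FPKM in siControl and 20.07, 18.23 and 18.06 FPKM in siPHF20L1 libraries. With only 2 conditions, this likeness rests almost wholly on the size of the difference between the groups.

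The markers of smooth muscle other than the members stayed below 1 FPKM in every library, but not all were unchanged. LMOD1 averaged 0.0667 ± 0.0462 and 0.22 ± 0.0458 FPKM in siControl and siPHF20L1, and ACTG2 0.143 ± 0.095 and 0.58 ± 0.114 FPKM. Both lay higher in all siPHF20L1 libraries than in all siControl libraries, while MYH11, DES, SYNPO2 and MYOCD overlapped between the groups. MYH11, the smooth muscle myosin, averaged 0.157 ± 0.0153 FPKM with the control siRNA and 0.127 ± 0.0252 FPKM after the knockdown, and the cofactor gene MYOCD was at 0.01 FPKM or less in each library. None of the 7 smooth muscle markers, CNN1 and the actin gene ACTG2 among them, had a mean of 1 FPKM. Their sum was 1.18 to 1.4 FPKM in siControl and 1.83 to 2.51 FPKM in siPHF20L1 libraries. Among 6 fibroblast markers in the files only COL1A1 and PDGFRB had a mean of at least 1 FPKM, and the sum was 6.67 to 7.54 and 5.91 to 7.06 FPKM. Of 5 blood cell markers in the files 2 reached that mean, and all summed to 5.06 to 6.18 and 4.41 to 5.51 FPKM, with HBB at 0 throughout. None of 4 endothelial markers did, and their sum stayed at or below 0.54 FPKM. Of 7 luminal markers 4 did, and all summed to 294.77 to 348.05 and 318.35 to 362.62 FPKM, nearly all from KRT8 and KRT18, with ESR1 at 0 in every library. Within that sum EPCAM lay higher in all siPHF20L1 libraries, at 2.2 ± 0.161 and 4.31 ± 0.796 FPKM in siControl and siPHF20L1. GATA3 lay lower in all of them, at 1.96 ± 0.0569 and 1.6 ± 0.13 FPKM. KRT8, KRT18, PGR and CDH1 overlapped between the groups.

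Genes that work on the same filaments, and SRF with its cofactors and other targets, were counted in 6 lists. Members of the set above do not appear in them. Each count is to be read beside the 34.0% higher, 24.7% lower and median difference of 0.05 among all genes tested. Whether a list differs from all genes was not tested. Of the actin isoforms only the cytoplasmic ACTB and ACTG1 were high enough to be tested. ACTB was at 3671.9 ± 175.7 FPKM with the control siRNA and 3331.6 ± 110.8 FPKM after the knockdown, and its difference of -0.14 (SE 0.08) did not pass (limma, adjusted p = 0.157). It passed as lower when the replicate number entered as a block (limma, adjusted p = 0.0444) and was 0.0 with quantile normalization. ACTG1 had -0.10 (SE 0.11; limma, adjusted p = 0.481), and 0.14 with quantile normalization. The enteric smooth muscle actin ACTG2, below the filter like CNN1, read 0.05, 0.14 and 0.24 FPKM in siControl and 0.53, 0.5 and 0.71 FPKM in siPHF20L1 libraries.

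Of SRF, its cofactors and other known targets, 13 of 26 tested genes were higher, 7 lower and 6 did not pass (limma), with a median difference of 0.2 against 0.05 for all genes tested. SRF itself rose from 38.2 ± 1.86 to 67.8 ± 2.86 FPKM (limma, log2 difference 0.81, SE 0.06, adjusted p = 1.07e-05). The LIM protein gene FHL2 rose by 0.91 (SE 0.11; limma, adjusted p = 0.000136) and SVIL, which encodes supervillin, by 0.78 (SE 0.05; limma, adjusted p = 4.98e-06). The immediate early gene JUNB fell from 38.7 ± 3.85 to 22.0 ± 2.91 FPKM (limma, adjusted p = 0.000294). Among the other lower genes, ANKRD1 fell from 418.2 ± 9.09 to 249.1 ± 8.1 FPKM (limma, adjusted p = 1.03e-05). VCL fell from 140.3 ± 6.22 to 98.0 ± 4.47 FPKM and FLNA from 368.0 ± 25.6 to 273.2 ± 25.6 FPKM (limma, adjusted p = 0.000123 and 0.00238).

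Of non-muscle myosin and its regulators, 6 of 18 tested genes were higher, 6 lower and 6 did not pass (limma), with a median of 0.03 against 0.05 for all genes tested. MYH9, the heavy chain of non-muscle myosin IIA, rose from 142.6, 141.92 and 141.18 FPKM to 241.81, 248.67 and 256.29 FPKM in libraries 1, 2 and 3 (limma, adjusted p = 4.69e-06). CALD1, whose product caldesmon binds actin together with tropomyosin, rose from 24.1 ± 1.04 to 41.7 ± 1.57 FPKM (limma, adjusted p = 1.25e-05). PPP1R14B, an inhibitor of myosin phosphatase, rose by 1.06 (SE 0.11; limma, adjusted p = 7.2e-05), while PPP1R12A, the phosphatase's targeting subunit, fell from 27.5 ± 4.18 to 13.9 ± 2.15 FPKM (limma, adjusted p = 0.000301). The other higher genes were PPP1CB, MYL6 and MYLK. The light chain genes MYL12A and MYL12B, the GTPase genes RHOA and RHOC, and PPP1R12B were the other lower ones. ROCK1, ROCK2, RHOB, MYL9, MYL6B and SMTN did not pass.

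The list of proteins that cap, sever or bind actin monomers also held coronins and the kinases and phosphatases of cofilin. Of its 31 tested genes 7 were higher, 12 lower and 12 did not pass (limma), with a median of -0.15 against the 0.05 of all genes tested. The higher genes were CAPZB, CORO2B, LIMK1, LIMK2, TESK1, SSH2 and SSH3, so most were kinases and phosphatases. CAPZA1, a subunit of the barbed-end capping protein, fell from 137.3 ± 4.85 to 52.2 ± 2.32 FPKM (limma, adjusted p = 7.52e-07). LIMK1, a kinase that phosphorylates cofilin, rose from 33.1 ± 1.82 to 87.3 ± 4.94 FPKM (limma, adjusted p = 1.28e-06), and the kinase genes TESK1 and LIMK2 rose by 0.82 (SE 0.08) and 0.71 (SE 0.07; limma, adjusted p = 3.78e-05 and 5.79e-05). GSN, which encodes the severing protein gelsolin, fell by 0.67 (SE 0.10; limma, adjusted p = 0.000412), and TESK2, of the same kinase family as TESK1, fell by 0.31 (SE 0.08; limma, adjusted p = 0.0119). Without siPHF20L1 library 3, 7 genes of this list were lower.

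Of the Arp2/3 complex, its activators and the formins, which nucleate filaments, 7 of 24 were higher, 8 lower and 9 did not pass (limma), with a median of 0.05, the same as for all genes tested. Blocking on the replicate number raised the count of higher genes to 11. CTTN, which encodes cortactin, rose from 31.6 ± 1.61 to 71.5 ± 0.229 FPKM (limma, adjusted p = 1.28e-06). The formin genes FMN1, DAAM1 and DIAPH1 rose by 1.03, 0.89 and 0.74 (limma, adjusted p = 6.67e-05, 0.000184 and 3.7e-05). Of the complex's own subunit genes, ACTR2, ACTR3, ARPC1B, ARPC2, ARPC3 and ARPC5L were lower, ARPC1A and ARPC4 higher, and ARPC5 did not pass. ARPC3 fell from 182.1 ± 7.33 to 129.9 ± 3.14 FPKM (limma, adjusted p = 0.000108). The activator gene WASF2 fell from 57.3 ± 2.83 to 34.9 ± 1.88 FPKM (limma, adjusted p = 3.06e-05), and the formin gene DIAPH3 was also lower.

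Troponins work with tropomyosin in striated muscle, and 7 of the 8 genes were below the filter, 1 of them listed at 0 in every library. The slow skeletal TNNT1 alone was abundant, at 37.51, 45.67 and 42.77 FPKM in siControl and 47.56, 48.31 and 50.83 FPKM in siPHF20L1 libraries 1, 2 and 3. Its difference of 0.22 passed (limma, adjusted p = 0.0356), but not without siControl library 1 or 3, nor without siPHF20L1 library 2 or 3 (limma, adjusted p up to 0.121).

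**Figure D4:**
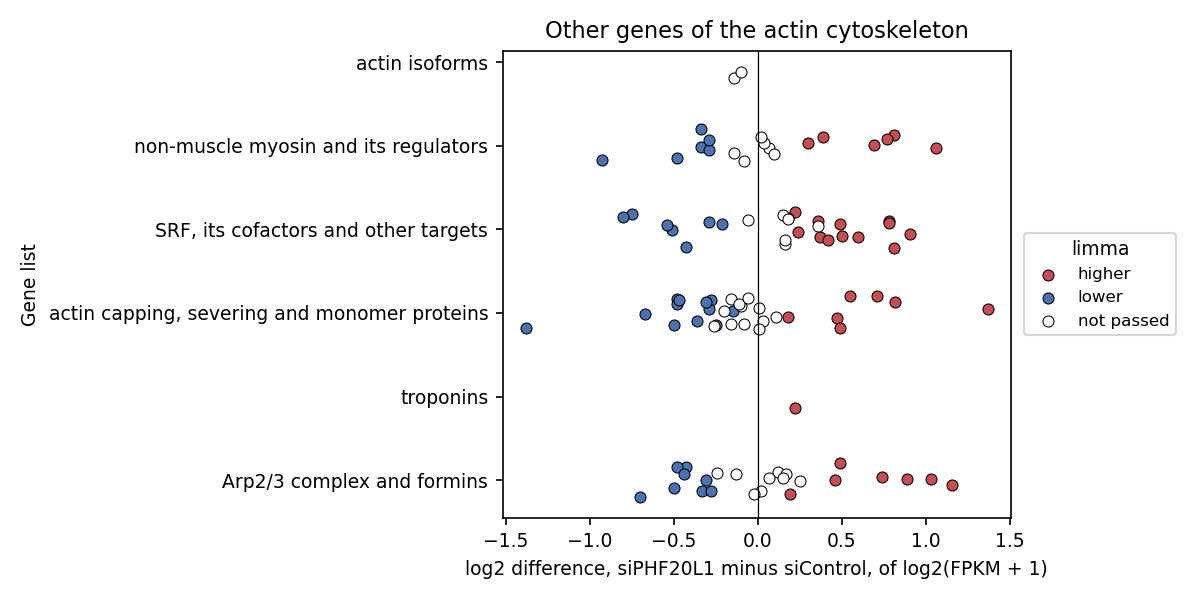
Log2 difference of each tested gene in the 6 lists, 1 point a gene (vertical jitter only separates points); red points were higher, blue points lower and white points did not pass (limma, adjusted p under 0.05). Lists other than the actins and troponins hold points on both sides of 0, from -1.38 for CAPZA1 to 1.37 for LIMK1.

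The words CAAGAT and TAAGGA were picked by an earlier analysis of the same values, and were looked up in the longest annotated 3′ UTR of each member, on the transcript strand only. Of the 10 genes, CNN3 held CAAGAT, and TPM1 and CNN2 held TAAGGA, 1 match each. Of the 11485 tested genes with an annotated 3′ UTR, 54.2% held a word of the pair. CNN3 was lower, while TPM1 and CNN2 were higher, and TAGLN2, the other lower member, held neither. The site of CNN3 begins 574 bases after the stop codon and is shown since CNN3 had the largest fall, the word in capitals.
CNN3: tacctagcgaaCAAGATcttttcagagt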

How the data were processed

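Per the submitters' processing notes, the tools included HTSeq 0.6.0, TopHat2 2.1.1 and Bowtie 0.12.2 and the build was GRCh37, with no role stated. Poly-A RNA was made into stranded libraries, per the labels' protocols. Per the file headers, the authors deposited FPKM, 1 value per gene, under Entrez identifiers. The calculation of FPKM and any use of strand are not given in the sources used here. Of 17452 identifiers, 17419 were found in the RefSeq gene table, which restored 26 symbols that read as dates. GENCODE release 29 and RefSeq sequences belong to GRCh38 and served only for sequences, lengths and overlaps.

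limma 3.58.1 (R 4.3.3) was run on log2(FPKM + 1) with a trend in the prior variance, over all genes with at least 1 FPKM in at least 3 libraries, and Benjamini-Hochberg adjusted two-sided p-values were called under 0.05. No set test was made. Deviations from the group mean correlated between same-numbered libraries (0.73, 0.44 and 0.42 for the numbers 1, 2 and 3). For the numbers 2 and 3 the crossed matching was about as close. siControl 3 with siPHF20L1 2 gave 0.49, and siControl 2 with siPHF20L1 3 gave 0.31. These values thus match only the libraries numbered 1. The number was used as a block among the alternatives, where its matching of 2 with 2 and 3 with 3 rests on the labels' numbers alone. Depth came from steps in low FPKM of short genes with 1 transcript and is approximate.

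Members and lists were chosen with earlier results of these data known. Named were all members, PHF20L1, up to 4 called genes per list with the largest difference, and the 3 genes closest to TPM4. ACTB, ACTG1 and ACTG2, and the marker genes given with values, were named after their values were seen. So were GSN, TESK2, ANKRD1, VCL, FLNA, WASF2, DIAPH3, CAPZB, CORO2B, SSH2, SSH3 and the subunit genes of the Arp2/3 complex. The same holds for the genes of the myosin list named beyond its 4 with the largest difference.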

Additional observations from a re-analysis of the deposited data

How the results depend on the processing

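Each difference was recomputed with another pseudocount (0.1), no filter or one of 5 FPKM, 3 scalings, the replicate block, the numbers 1 or 2 and 3 alone, and without each library. The 9 members tested kept their direction wherever they were tested. TPM4 lay between 2.68 and 2.85, TAGLN between 1.69 and 1.83, CNN3 between -0.94 and -0.85, TPM3 between -0.18 and -0.03 and CNN2 between 0.25 and 0.41. ACTA2 reached 1.94 with a pseudocount of 0.1 and was not tested at the filter of 5 FPKM. ACTG1 reversed to 0.14 with quantile normalization. Median-ratio factors moved the median of all genes from 0.053 to -0.017.

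Counts in lists moved by over 1.5 times as follows. Without the filter, 1 actin was higher (ACTG2) and 1 lower (ACTA1), and 1 troponin was lower (TNNI3), all below 1 FPKM, while 0 troponins were higher because TNNT1 no longer passed (limma, adjusted p = 0.0556). With the replicate block, 1 actin was lower and 11 genes of the Arp2/3 and formin list were higher; it moved no other count by as much, although it changed calls of single genes. In the numbers 2 and 3 alone, 1 actin was lower. The 1 higher troponin became 0 with quantile normalization and with median-ratio factors. Without each library in turn, higher troponins ranged from 0 to 1 and lower genes of the capping, severing and monomer list from 7 to 15. The causes were not tested. Depth limits CNN1, at 16.7 fragments a library or fewer.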
